A study of Arabidopsis thaliana with 12 samples.

Results

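The knockdown of histone H3.3 was compared with the wild type in seedlings of Arabidopsis thaliana, across all genes of the deposited table. The 6 libraries of this comparison, 3 of Col and 3 of h3.3kd, were chosen by their column names out of 12, and 18851 of 23893 genes had a mean of at least 1 TPM over the 12 libraries and were tested. TPM is an abundance that is corrected for transcript length and scaled to the same total in each library. Col is the wild type and h3.3kd is a line labelled h3.3kd-1. Both were sampled as 7-day-old whole seedlings kept at 21 °C in short days, with no treatment named, and total RNA was sequenced. The promoter, the silencing construct or the alleles behind h3.3kd-1 are not stated in any source used here, and only 1 such line was profiled, so the H3.3 genes and any other feature of that line cannot be told apart. The other 6 libraries, 3 of h2a.z and 3 of h3.3kd;h2a.z, served in the shared fit and in the last comparison. Whether the 3 libraries of a genotype were grown apart is not stated, and their spread, on which all p-values rest, may be technical.

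Histone H3.3 is the replacement form of histone H3. The canonical form H3.1 is deposited mainly while DNA is copied, whereas H3.3 is placed into chromatin throughout the cell cycle and is found over transcribed genes, in plants most of all toward their 3′ ends. Arabidopsis makes H3.3 from the genes HTR4, HTR5 and HTR8. The series concerns growth in warmth, a response in which seedlings lengthen their stems and leaf stalks, and all libraries used here come from seedlings at 21 °C.

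Within a genotype, Pearson's r between libraries, over genes on log2(TPM + 1), was 0.993 to 0.996, and Col with h3.3kd libraries at 0.974 to 0.977; genes are not independent replicates. Depth, estimated from the smallest steps of the TPM values, was about 19800000, 24100000 and 21400000 reads in Col and 28500000, 24900000 and 29800000 in h3.3kd, so each h3.3kd library was deeper than each Col library. Of the markers of green shoot, all 6 reached 1 TPM, as did all 8 root markers, whereas none of 4 floral markers did and the 1 pollen marker in the table was at 0. All 6 seed markers also reached 1 TPM. Markers of shoot and root were thus present, as in whole seedlings, and so were those of seed. A gene is said to have risen or fallen where limma gave an adjusted p below 0.05 (Benjamini-Hochberg over the 18851 genes), fold changes are differences of log2(TPM + 1), which understate the change of low genes, and errors of means are SD with n = 3.

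Of the H3.3 genes, HTR4 and HTR8 were low in all 3 h3.3kd libraries and HTR5 was near its level in Col, and whether HTR5 was a target is not stated. HTR4 (AT4G40030) had 386, 382 and 389 TPM in Col and 37.4, 36.9 and 34.2 TPM in h3.3kd. HTR8 (AT5G10980) had 185, 192 and 184 TPM in Col and 13.3, 13.2 and 11.8 TPM in h3.3kd. These are log2 changes of -3.38, SE 0.078 for HTR4 (adjusted p = 1.62e-12, limma) and log2 change -3.77, SE 0.12 for HTR8 (adjusted p = 3.52e-11), with no overlap of the groups. HTR5 (AT4G40040), the third H3.3 gene, had 237, 261 and 251 TPM in Col and 207, 209 and 205 TPM in h3.3kd. Its change of -0.27, SE 0.063 was called (adjusted p = 0.00422) and lost its call when TPM were rescaled by median ratios (-0.15, adjusted p = 0.179). HTR5 therefore carried most of the H3.3 messenger RNA left in h3.3kd. Summed over the 3 genes, H3.3 transcripts fell from 823 ± 13.6 TPM in Col to 256 ± 4.27 TPM in h3.3kd, a ratio of 0.311 (exact permutation test, two-sided, p = 0.1, the smallest that 3 against 3 libraries allow).

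The genes for the other core histones and for linker histones were higher in h3.3kd. Linker histones bind the DNA between nucleosomes, and H4, H2A and H2B build the nucleosome core together with H3. All 8 histone H4 genes rose, as did all 3 linker histone genes, 7 of 9 H2B genes, 5 of 9 H2A genes other than H2A.Z and 3 of 5 H3.1 genes, and no gene of these lists fell. Of all genes tested, 9.12% rose and 26.7% fell. The median log2 change was 1.23 for the H4 genes, 1.91 for linker histones, 0.58 for H2B, 0.45 for H3.1 and -0.11 over all genes tested. Because whole seedlings were used, more cells that make a transcript and more transcript per cell cannot be told apart here or in any result that follows.

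The linker histone HIS1-3, a variant known to be induced by drought, rose most of all histone genes. HIS1-3 (AT2G18050) had 21.2, 19.5 and 17.3 TPM in Col and 212, 195 and 161 TPM in h3.3kd, a change of 3.22, SE 0.11 (adjusted p = 1.03e-10, limma). H1.2 (AT2G30620), a main linker histone, had 119, 132 and 122 TPM in Col and 485, 469 and 453 TPM in h3.3kd, a change of 1.91, SE 0.059 (adjusted p = 2.52e-11). H1.1 (AT1G06760), the other main linker histone, rose from 140.2 ± 7.65 to 342 ± 7.46 TPM (log2 change 1.28, SE 0.063). In each of the 3 genes every h3.3kd library was above every Col library. Together the 3 linker histone genes went from 284 ± 14.5 to 1000.2 ± 46.6 TPM, a ratio of 3.52 (exact permutation p = 0.1).

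Among the H4 genes, which all encode the same or nearly the same protein and can share reads, AT3G53730 stood apart with 75.7, 72.7 and 72.3 TPM in Col and 571, 564 and 550.5 TPM in h3.3kd (log2 change 2.92, SE 0.13, adjusted p = 9.28e-10, limma). The other 7 rose by between 0.41 (AT1G07660) and 1.44 (AT2G28740) on the log2 scale. The summed H4 level went from 660.1 ± 29.3 to 1906 ± 28.9 TPM (ratio 2.89), and the most abundant of the 8 was AT5G59690 in Col and AT3G53730 in h3.3kd. HTB6 (AT3G53650) led the H2B genes (6.11 to 17.5 TPM, log2 change 1.39, SE 0.15), followed by HTB7 (AT3G09480) (4.44 to 12.2 TPM, log2 change 1.28, SE 0.15) and HTB3 (AT2G28720) (87.3 to 203 TPM, log2 change 1.21, SE 0.064), while HTB1 (AT1G07790) at 0.021 and HTB2 (AT5G22880) at -0.094 did not pass the test. The summed H2B level was 1.38 times that of Col. HTA7 (AT5G27670), an H2A.W gene, rose most among the H2A genes (47.9 ± 1.73 to 97.2 ± 2.09 TPM, log2 change 1.01, SE 0.086). HTA5 (AT1G08880) was at 0.21, and its call was lost without Col replicate 1, Col replicate 2, h3.3kd replicate 1 or h3.3kd replicate 3.

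Of the H3.1 genes, HTR2 (AT1G09200) had 144, 129 and 129.5 TPM in Col and 207, 213 and 212 TPM in h3.3kd (log2 change 0.65, SE 0.085, adjusted p = 4.23e-05, limma). HTR1 (AT5G65360), the most abundant of them, rose by 0.45, SE 0.072, and HTR3 (AT3G27360), the least abundant, by 0.83, SE 0.12. HTR9 and HTR13 were at 0.039 and 0.18 and did not pass. The summed H3.1 level rose from 465 ± 14.1 to 624 ± 18.9 TPM. That rise was smaller than the loss of H3.3 messenger RNA: H3.1 and H3.3 together stood at 1287 ± 3.65 TPM in Col and 879.7 ± 16.7 TPM in h3.3kd, a ratio of 0.683. Messenger RNA for H4 thus rose to 2.89 times its Col level while that for H3.1 and H3.3 together fell. Of the H2A.Z genes, HTA4 (AT4G13570) rose (5.77 to 11.2 TPM, log2 change 0.84, SE 0.12) and HTA9 (AT1G52740) fell by 0.35, which did not pass once TPM were rescaled (-0.23, adjusted p = 0.0926), and HTA8 and HTA11 did not pass. None of 10 genes for histone H3 chaperones passed the test (median -0.0054).

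**Figure D1:**
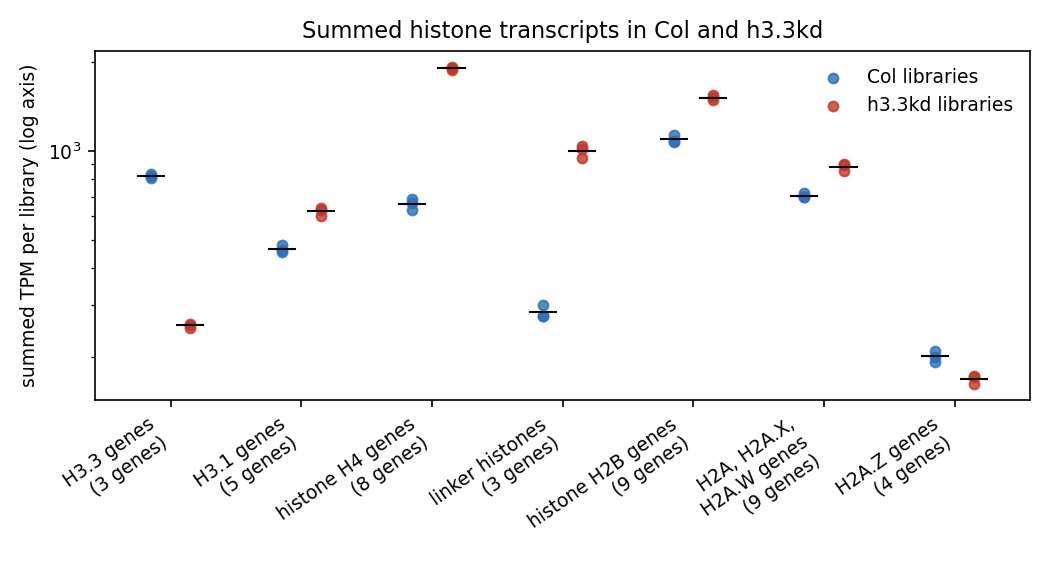
Summed TPM (log axis) of the genes of 7 histone classes in each Col library (blue points) and each h3.3kd library (red points), with black bars at the group means. The 3 libraries of a group lie close together in every class, and the groups do not overlap: H3.3 and H2A.Z sums are lower in h3.3kd, and the other 5 are higher, H4 and linker histones by the widest margin.

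Many histone genes are active while DNA is copied, so genes of DNA replication and division were counted beside them. Of 34 genes of DNA replication none rose and 4 fell, and with rescaled TPM 1 rose and none fell. The falls numbered 1 without Col replicate 1, Col replicate 2 or h3.3kd replicate 2, 2 without h3.3kd replicate 1 or 3, and 11 with the Col and h3.3kd libraries fitted alone. Of 48 genes of mitosis and the cell cycle none rose and 10 fell, although the median of all 48 was 0.075. In both lists the share of falls was below the 26.7% of all tested genes. The falls were led by AUR2 (AT2G25880), an Aurora kinase (6.8 to 3.31 TPM, log2 change -0.86, SE 0.16), and KRP4 (AT2G32710), an inhibitor of cyclin-dependent kinases (9.22 to 5.52 TPM, log2 change -0.65, SE 0.12). Cyclin CYCD3;2 (AT5G67260) fell from 65.2 to 48.7 TPM (log2 change -0.41, SE 0.073). With rescaled TPM 3 rose and 7 fell. With the Col and h3.3kd libraries fitted alone, 1 replication gene and 4 mitosis genes rose, and without Col replicate 1 it was 1 of each list.

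The start regions of 3 histone genes are shown because they differ in the octamer CGCGGATC, an element known from promoters of plant histone genes that are active while DNA is copied. Each is the 250 bases before the gene start in RefSeq (build TAIR10.1), written in the direction of the gene, with the octamer in capitals. HTR2 (chr1:2972335-2972584, minus strand) holds it at 90 and 19 bases before the start, the H4 gene AT5G59690 (chr5:24051224-24051473, plus strand) at 71, and the H4 gene AT3G53730 (chr3:19913516-19913765, minus strand), which rose most, has none.
HTR2: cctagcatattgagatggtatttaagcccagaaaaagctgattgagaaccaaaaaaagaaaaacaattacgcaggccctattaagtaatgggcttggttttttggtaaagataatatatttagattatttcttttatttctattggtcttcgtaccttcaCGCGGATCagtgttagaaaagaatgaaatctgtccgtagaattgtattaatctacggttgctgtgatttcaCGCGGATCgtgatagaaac
AT5G59690: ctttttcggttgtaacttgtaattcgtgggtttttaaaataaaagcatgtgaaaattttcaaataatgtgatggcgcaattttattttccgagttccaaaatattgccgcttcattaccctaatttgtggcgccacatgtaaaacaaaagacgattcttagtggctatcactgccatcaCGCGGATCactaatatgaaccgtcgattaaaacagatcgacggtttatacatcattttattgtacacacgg
AT3G53730: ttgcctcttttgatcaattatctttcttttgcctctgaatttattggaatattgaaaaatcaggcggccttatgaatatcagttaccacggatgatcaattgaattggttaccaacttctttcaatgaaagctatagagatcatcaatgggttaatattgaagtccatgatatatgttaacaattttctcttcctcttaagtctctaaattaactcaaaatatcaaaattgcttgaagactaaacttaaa
Searched on both strands, the octamer was present in 30 of 18760 start regions of tested genes, or 0.16%. It was found in 3 of 5 H3.1 genes, 3 of 9 H2A genes, 2 of 8 H4 genes, 1 of 3 linker histone genes, none of 9 H2B genes and, among H3.3 genes, in HTR5 alone. Of the genes that rose at least 2-fold, 3 of 123 (2.44%) had it, among them the histone genes AT5G59690 and H1.1, which the counts above already hold. AT5G59690 rose from 181 ± 9.09 to 445 ± 8.94 TPM (log2 change 1.29, SE 0.12), less than AT3G53730 and within the range of H4 genes that lack the octamer in this window. The other H4 gene that holds it, AT1G07660, rose least of the 8 (log2 change 0.41, SE 0.078), below each H4 gene that lacks it. The presence of these letters is a description and does not show a binding site.

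HTR4 and HTR5 lie next to each other, and genes around them were also changed. They were looked at because of their position, outside the rule by which other genes are named. AT4G40042, annotated as a 12 kDa subunit of the microsomal signal peptidase and the next gene beyond HTR5, had 12.2, 11.8 and 15.8 TPM in Col and 50.6, 49.7 and 43.9 TPM in h3.3kd (log2 change 1.79, SE 0.16, adjusted p = 1.47e-06, limma). AT4G40045, the next but one, rose from 49.1 ± 3.77 to 71.7 ± 0.654 TPM (log2 change 0.54, SE 0.073). On the other side of HTR4, AT4G40020 was nearly silent in Col and went from 0.459 ± 0.157 to 1.93 ± 0.181 TPM (log2 change 1.01, SE 0.15), and SNRK2.7 (AT4G40010), a kinase of the family that acts in abscisic acid and osmotic stress signalling, fell from 9.45 ± 0.685 to 4.4 ± 0.258 TPM (log2 change -0.95, SE 0.094). Around HTR8 the nearest gene before it, AT5G10970, fell by 0.55 and the nearest after it was at 0.45 and did not pass. Adjacent or overlapping genes can share reads, the strand setting is not given, and the part of shared reads in these values was not tested.

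Across the transcriptome, 6762 of 18851 genes (35.9%) passed the test, 1720 (9.12%) higher and 5042 (26.7%) lower in h3.3kd. Most of these changes were small: 4962 of the 6762, or 73.4%, were under 1.5-fold. At least 2-fold, 123 genes were higher (0.652% of those tested) and 380 were lower (2.02%). The balance of rises and falls depended on the scaling. The 20 most abundant genes held between 147685 and 162994 of 1000000 TPM in Col and between 193683 and 204009 in h3.3kd, and every other gene shares what remains. Rescaling by median ratios moved the median log2 change from -0.11 to 0.0020, a shift of 0.11, and left 6365 genes called (33.8%), 3241 higher (17.2%) and 3124 lower (16.6%). Of the 6762 calls, 4843 were kept in the same direction after rescaling. The share of higher genes among all calls was 25.4% as deposited and 50.9% rescaled. Of the large changes, 123 of 123 rises and 379 of 380 falls kept their call with rescaled TPM. After rescaling 166 genes were called and at least 2-fold higher and 303 lower. Large falls thus outnumbered large rises under both scalings, by less when rescaled. In 10470 genes (55.5%) the Col and h3.3kd libraries did not overlap, so the same observation for a single named gene sets it little apart.

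**Figure D2:**
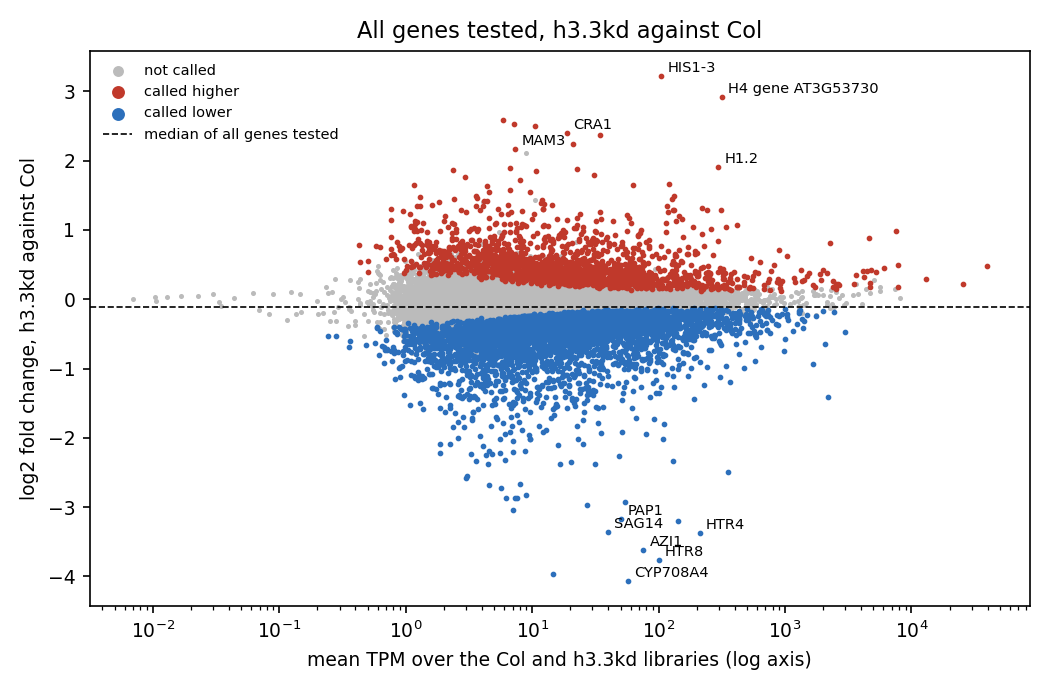
Each point is a tested gene, placed by its mean TPM over the Col and h3.3kd libraries (log axis) and its log2 fold change in h3.3kd against Col; red points were called higher, blue lower and grey were not called, and the dashed line marks the median of all genes (-0.11). Named points lie far from the cloud: HIS1-3 and the H4 gene AT3G53730 at the top, CYP708A4, HTR8, AZI1 and HTR4 at the bottom.

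The 12 largest falls among genes with a clear level (at least 5 TPM in Col or in h3.3kd) included HTR4 and HTR8. They were chosen among genes whose Col and h3.3kd libraries do not overlap and whose call was kept with rescaled TPM. Separation of the libraries is thus a condition of the choice. CYP708A4 (AT3G44970), a cytochrome P450 of the family that also holds a thalianol hydroxylase, had 124, 109 and 93.7 TPM in Col and 6.25, 5.9 and 4.48 TPM in h3.3kd (log2 change -4.07, SE 0.11, adjusted p = 9.51e-12, limma). AT1G75945, which has no known function in the annotation, had 30.4, 26.9 and 28 TPM in Col and 0.807, 0.692 and 1.15 TPM in h3.3kd (log2 change -3.97, SE 0.12). In these 2 genes the highest h3.3kd library was far below the lowest Col library. AZI1 (AT4G12470), a lipid-transfer-like protein that primes systemic immunity, had 148, 137 and 138 TPM in Col and 8.69, 10.8 and 12.3 TPM in h3.3kd (log2 change -3.63, SE 0.12, adjusted p = 3.62e-11). SAG14 (AT5G20230), a blue copper-binding protein whose gene is induced in senescing leaves, had 50.7, 51.6 and 119 TPM in Col and 6.61, 5.15 and 5.46 TPM in h3.3kd, with Col replicate 3 well above the other Col libraries (log2 change -3.36, SE 0.3, adjusted p = 1.25e-06). AT5G64120, a class III peroxidase, had 266, 256 and 256 TPM in Col and 29.6, 27 and 25.8 TPM in h3.3kd (log2 change -3.2, SE 0.12, adjusted p = 1.49e-10).

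PAP1 (AT1G56650), a MYB factor that activates anthocyanin genes, had 95.7, 90.3 and 89.4 TPM in Col and 9.24, 8.43 and 10.2 TPM in h3.3kd (log2 change -3.17, SE 0.1, adjusted p = 3.52e-11, limma). BOR5 (AT1G74810), a relative of the borate exporter BOR1, fell from 13.4 ± 2.05 to 0.735 ± 0.0364 TPM (log2 change -3.04, SE 0.17). AT2G25510, of unknown function, fell from 48.8 ± 4.84 to 5.36 ± 1.07 TPM (log2 change -2.98, SE 0.14). AT1G13609, annotated as a defensin-like protein, fell from 96 ± 12.8 to 12.2 ± 4.91 TPM (log2 change -2.93, SE 0.22), and AT1G62510, a protein of the lipid-transfer and seed-storage family, from 13.7 ± 0.788 to 1.04 ± 0.487 TPM (log2 change -2.88, SE 0.18). Near-identical copies of AZI1 stand beside it in a cluster, where AT4G12480 also fell (14.9 to 4.29 TPM, log2 change -1.63, SE 0.27), and the split of reads between them is uncertain.

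Of the 12 largest rises, chosen by the same rule without overlap, 3 were the histone genes HIS1-3, AT3G53730 and H1.2 described above. AT1G14250, a nucleoside phosphatase of the GDA1/CD39 family, had 0.569, 1.27 and 1.07 TPM in Col and 12.2, 10.5 and 9.52 TPM in h3.3kd (log2 change 2.59, SE 0.14, adjusted p = 7.81e-09, limma). AT5G03090 had 1.46, 1.55 and 1.2 TPM in Col and 13.7, 13.8 and 11.3 TPM in h3.3kd (log2 change 2.53, SE 0.15, adjusted p = 2.34e-08). AT2G05915, of unknown function, had 2.43, 2.71 and 2.23 TPM in Col and 17.5, 17.2 and 21.1 TPM in h3.3kd (log2 change 2.5, SE 0.16, adjusted p = 3.37e-08). All 3 were low in every Col library and at least several times higher in every h3.3kd library. AT1G07450, annotated as an NAD(P)-binding protein, rose from 10.5 ± 1.259 to 58.5 ± 2.33 TPM (log2 change 2.37, SE 0.1), and AT5G23115 from 7.6 ± 5.56 to 34.7 ± 9.08 TPM (log2 change 2.24, SE 0.36), though its Col libraries spread widely and its model in RefSeq is only 29 bases long, so its TPM are uncertain. MAM3 (AT5G23020), which lengthens the side chain of aliphatic glucosinolates, rose from 2.04 ± 0.227 to 12.7 ± 1.43 TPM (log2 change 2.17, SE 0.18), and AT1G04560, an AWPM-19-like membrane protein, from 9.1 ± 1.71 to 36.2 ± 6.81 TPM (log2 change 1.88, SE 0.3).

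The other 2 of the 12 are seed genes with large standard errors, which the shared fit takes from the spread within all 4 genotypes. CRA1 (AT5G44120), a cruciferin seed storage protein, had 6.91, 5.16 and 3.87 TPM in Col and 41.3, 26 and 29.5 TPM in h3.3kd (log2 change 2.4, SE 0.87, adjusted p = 0.0438, limma), and its call was lost when any Col or h3.3kd library was left out. OLEO5 (AT3G01570), an oleosin of seed oil bodies, had 2.01, 2.56 and 2.15 TPM in Col and 13.1, 11.9 and 8.51 TPM in h3.3kd (log2 change 1.89, SE 0.5, adjusted p = 0.00849). Of 20 tested genes of seed maturation 4 rose and 3 fell (median 0.39). The risers included ECP63 (AT2G36640), a late embryogenesis abundant protein (4.1 ± 1.1 to 17.5 ± 4.58 TPM, log2 change 1.85, SE 0.21), and SESA1 (AT4G27140), a seed albumin (1.55 ± 1.28 to 5.65 ± 0.36 TPM, log2 change 1.49, SE 0.38), whereas M17 (AT2G41260), another late embryogenesis protein, fell from 10.6 ± 1.3 to 0.761 ± 0.295 TPM (log2 change -2.72, SE 0.46). With the Col and h3.3kd libraries fitted alone 9 rose. The summed level of the 6 seed markers ranged from 15.3 to 23.9 TPM in Col and from 56.5 to 84.2 TPM in h3.3kd, with 2 of the 6 higher, CRA1 and SESA1. The part of seed RNA in these values was not tested.

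Transcripts for photosynthesis were higher in h3.3kd. Chloroplasts capture light with antenna proteins, pass electrons through the photosystems and fix carbon in the Calvin cycle, and nuclear genes encode most of these parts. Of 20 antenna genes 11 rose and 2 fell, with a median of 0.28. Of 32 genes for photosystem subunits and electron carriers 18 rose and 2 fell (median 0.18), but only 11 rose without Col replicate 1 and 11 without h3.3kd replicate 3. Of 21 carbon fixation genes 12 rose and 2 fell (median 0.15). That count fell to 5 without Col replicate 1, 7 without Col replicate 2, 6 without h3.3kd replicate 1, 6 without h3.3kd replicate 2 and 5 without h3.3kd replicate 3. With rescaled TPM 13, 24 and 12 genes rose and 1, 0 and 0 fell in the antenna, photosystem and carbon fixation lists.

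The gains were largest in TPM for the most abundant antenna and Rubisco genes. CAB1 (AT1G29930), an antenna protein of photosystem II, had 30143, 34069.8 and 34748 TPM in Col and 45269.9, 44429 and 48746 TPM in h3.3kd (log2 change 0.49, SE 0.089, adjusted p = 0.000712, limma). CAB3 (AT1G29910), a close copy of it, had 4759, 5188 and 5338 TPM in Col and 9711, 9896 and 10476 TPM in h3.3kd (log2 change 0.98, SE 0.08, adjusted p = 4.87e-07). RBCS2B (AT5G38420), a gene for the small subunit of Rubisco, had 3195, 3400.4 and 3219 TPM in Col and 6108, 5888 and 6106 TPM in h3.3kd (log2 change 0.88, SE 0.09, adjusted p = 4.12e-06). In all 3 the groups did not overlap. RBCS3B (AT5G38410) rose from 6463 ± 128 to 9115 ± 248 TPM (log2 change 0.5, SE 0.083). RBCS1A (AT1G67090), the most abundant Rubisco gene, went from 23549 ± 1051 to 27525 ± 567 TPM (log2 change 0.23, SE 0.076), and it did not pass once TPM were rescaled (adjusted p = 0.0856), nor without Col replicate 1, Col replicate 2 or any 1 h3.3kd library. These families hold near-identical copies that can share reads. Among less abundant genes, FBA5 (AT4G26530), an aldolase by annotation, rose from 57.8 ± 4.77 to 184 ± 6.95 TPM (log2 change 1.66, SE 0.087), and PSAD-2 (AT1G03130), a subunit of photosystem I, from 673 ± 23.7 to 1107 ± 53.9 TPM (log2 change 0.72, SE 0.064).

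Of 25 genes for chlorophyll and its delivery 9 rose, or 14 with rescaled TPM, and 2 fell (median 0.11). PORB (AT4G27440), a light-dependent protochlorophyllide reductase, rose from 69.9 ± 8.88 to 167 ± 7.56 TPM (log2 change 1.25, SE 0.12). CAO (AT2G47450), a subunit of the chloroplast signal recognition particle, which delivers antenna proteins to thylakoids, rose from 224 ± 10.2 to 462 ± 13.9 TPM (log2 change 1.04, SE 0.061), whereas DVR (AT5G18660), the divinyl reductase of the pathway, fell from 112 ± 6.97 to 60.1 ± 6.71 TPM (log2 change -0.89, SE 0.16). Of 22 carotenoid genes 5 rose and 11 fell, or 5 and 6 with rescaled TPM. ABA4 (AT1G67080), needed for neoxanthin, rose from 21.2 to 48.6 TPM (log2 change 1.16, SE 0.084), and BETA-OHASE_2 (AT5G52570), a carotene hydroxylase, fell from 197 to 115 TPM (log2 change -0.77, SE 0.072). The summed level of the 6 green shoot markers ranged from 68762 to 77694 TPM in Col and from 90709 to 97189 TPM in h3.3kd, and that of the 8 root markers from 1459.98 to 1564 TPM in Col and from 1088 to 1187 TPM in h3.3kd. The fall of the root sum was that of PYK10 (AT3G09260), a glucosidase of endoplasmic reticulum bodies (mean 1333 TPM in Col and 974 TPM in h3.3kd), and NAI2 (AT3G15950), needed for those bodies, fell too. The other 6 root markers had higher means in h3.3kd, and 2 of them rose, CASP1 and CASP2, which build the barrier of the endodermis; each lost its call without Col replicate 1, without h3.3kd replicate 1 and without 1 other h3.3kd library. The part of a different shoot to root ratio in the photosynthesis result was not tested.

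The largest losses in TPM were also partly in the chloroplast. ELIP2 (AT4G14690), an early light-induced protein that protects against light stress, had 3267, 3177 and 3148 TPM in Col and 1308, 1289 and 1024 TPM in h3.3kd (log2 change -1.41, SE 0.14, adjusted p = 4.11e-06, limma). ELIP1 (AT3G22840), its partner gene, fell from 2513 ± 36 to 1606 ± 149 TPM (log2 change -0.65, SE 0.15). LTP1 (AT2G38540), an abundant lipid-transfer protein of the epidermis, had 2295, 2042 and 2180.3 TPM in Col and 1138, 1100.3 and 1151 TPM in h3.3kd (log2 change -0.94, SE 0.066, adjusted p = 1.09e-07). MT2B (AT5G02380), a metallothionein, fell from 3485 ± 129 to 2502 ± 35.9 TPM (log2 change -0.48, SE 0.11), and AT3G05727, annotated as a pollen coat protein relative, from 607 ± 66.5 to 107 ± 8.72 TPM (log2 change -2.49, SE 0.26). The summed TPM of genes encoded by the plastid itself was 1929, 2055 and 1899.7 in Col and 1547, 1455 and 1518 in h3.3kd, a ratio of 0.768 (exact permutation test, p = 0.1, the smallest possible). Of 73 tested plastid genes none rose and 10 fell, where 26.7% of all tested genes fell, or 5 with rescaled TPM, and the ratio was then 0.836. The summed mitochondrial TPM had a ratio of 1.1 (exact permutation p = 0.5). Plastid RNA is largely without poly(A) tails, and how RNA was selected is not stated.

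**Figure D3:**
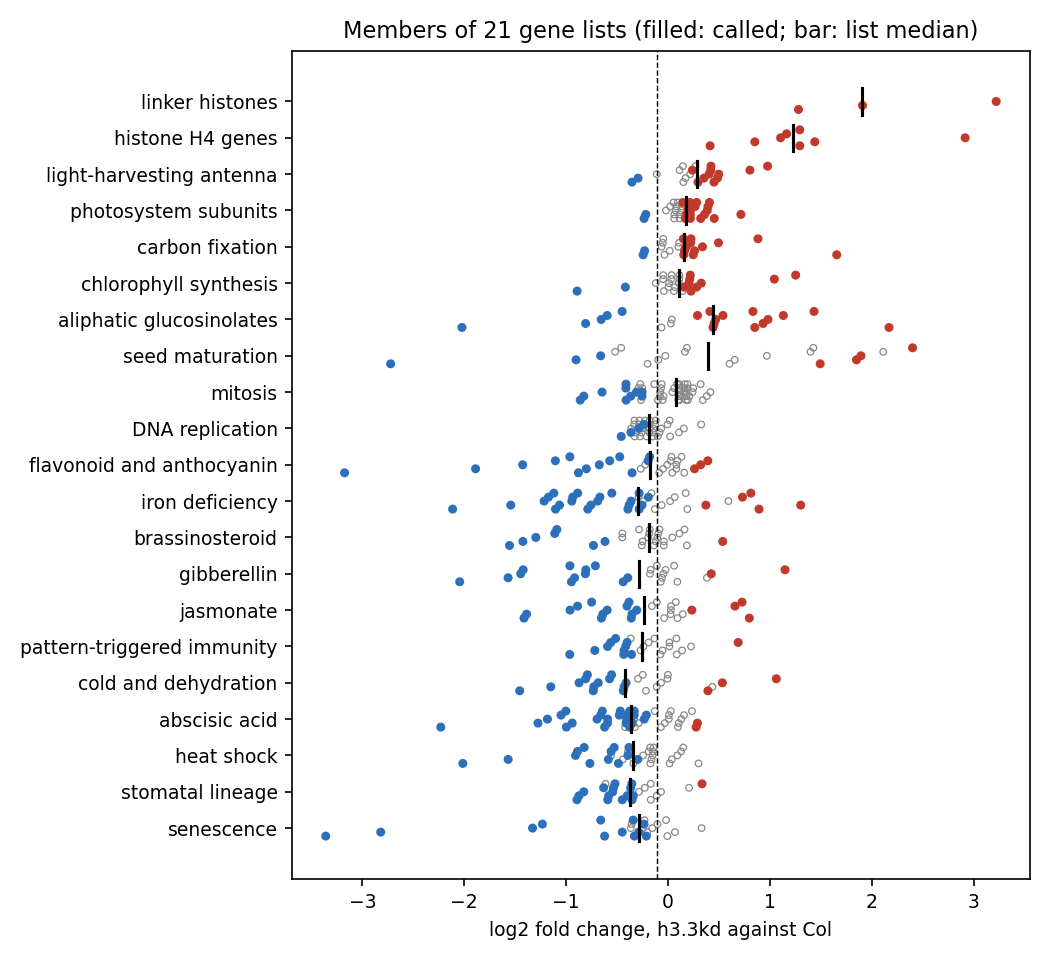
Log2 fold changes (h3.3kd against Col) of the tested members of 21 gene lists; filled points were called (red higher, blue lower), open points were not, black bars are list medians and the dashed line is the median of all genes (-0.11). Linker histone and H4 genes lie wholly to the right, photosynthesis lists mostly to the right by small steps, and the stress and hormone lists hold long tails to the left.

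Abscisic acid is the hormone of drought and seed dormancy. It binds PYL receptors, which block PP2C phosphatases and so free SnRK2 kinases. Of 42 genes of its synthesis, signalling and response 2 rose and 25 fell, and 21 fell with rescaled TPM (median -0.36). The 2 rises were lost without Col replicate 1, Col replicate 3, h3.3kd replicate 2 or h3.3kd replicate 3, and 1 was left without Col replicate 2. The falls included the receptor PYL2 (AT2G26040), with 9.82, 9.63 and 11.1 TPM in Col and 3.43, 3.8 and 4.58 TPM in h3.3kd (log2 change -1.18, SE 0.13, adjusted p = 7.68e-06, limma). They also included the phosphatase HAI1 (AT5G59220), with 15.9, 20.9 and 25 TPM in Col and 7.32, 9.39 and 6.83 TPM in h3.3kd (log2 change -1.28, SE 0.19, adjusted p = 0.000112). CYP707A1 (AT4G19230), which breaks the hormone down, fell from 23.8 ± 1.09 to 11 ± 0.786 TPM (log2 change -1.05, SE 0.11), as did 2 response factors. MYB102 (AT4G21440) fell from 6.03 ± 0.964 to 0.491 ± 0.105 TPM (log2 change -2.23, SE 0.23) and ATHB12 (AT3G61890) from 108 ± 25.8 to 52.6 ± 1.01 TPM (log2 change -1.0, SE 0.11). A receptor, a repressor of the pathway and a catabolic enzyme thus fell together. ACGTGG, the core of the element bound by factors of this pathway, was present (either strand) in the start regions of 10 of 42 genes of the list (23.8%) and of 9.29% of all tested genes, in 11.1% of genes that fell at least 2-fold and in 17.1% of those that rose at least 2-fold.

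Of 24 cold and dehydration genes 3 rose and 13 fell (median -0.42). KIN1 (AT5G15960), a small protein induced by cold and drought, had 37.1, 40.3 and 44.4 TPM in Col and 13, 14.7 and 14.7 TPM in h3.3kd (log2 change -1.46, SE 0.11, adjusted p = 2.57e-07, limma). GOLS2 (AT1G56600), which makes galactinol, a precursor of protective sugars, fell from 6.61 ± 1.05 to 2.42 ± 0.422 TPM (log2 change -1.15, SE 0.15). CBF3 (AT4G25480), a master regulator of cold acclimation, fell from 8.55 ± 0.378 to 4.21 ± 0.0778 TPM (log2 change -0.87, SE 0.19), and RD20 (AT2G33380), a caleosin, from 17.9 ± 3.46 to 9.78 ± 1.84 TPM (log2 change -0.81, SE 0.15). COR413IM1 (AT1G29395), a protein of the inner chloroplast envelope, rose from 8.24 ± 0.67 to 18.3 ± 1.36 TPM (log2 change 1.06, SE 0.11). The core ACCGAC that CBF factors bind was in the start regions of 6 of 24 genes of the list (25%) and of 5.3% of all tested genes, in 6.9% of genes that fell at least 2-fold and in 5.69% of those that rose at least 2-fold.

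Heat shock genes encode chaperones and the HSF factors that switch them on. Of 31 tested none rose and 13 fell (median -0.34), with 10 lower after rescaling. HSP70 (AT3G12580), a heat-inducible cytosolic chaperone, had 190.2, 163 and 167 TPM in Col and 50.5, 45.3 and 32.5 TPM in h3.3kd (log2 change -2.01, SE 0.15, adjusted p = 1.61e-07, limma). HSFA2 (AT2G26150), the factor that sustains the heat response, had 12.9, 8.67 and 10.5 TPM in Col and 2.06, 3.47 and 3.31 TPM in h3.3kd (log2 change -1.57, SE 0.17, adjusted p = 5.82e-06). All 3 h3.3kd libraries were below all Col libraries in both. HSP101 (AT1G74310), a disaggregase needed for heat tolerance, fell from 10.7 ± 0.931 to 5.25 ± 0.246 TPM (log2 change -0.91, SE 0.093). The co-chaperone HOP3 (AT4G12400) fell from 10.2 ± 1.45 to 5.06 ± 0.667 TPM (log2 change -0.89, SE 0.12), and the small heat shock protein HSP17.8 (AT1G07400) from 10.9 ± 1.66 to 6.05 ± 2.79 TPM (log2 change -0.82, SE 0.19). The heat shock element was in the start regions of 4 of 31 genes of the list (12.9%) and of 0.4% of all tested genes. In the endoplasmic reticulum, of 25 genes of the unfolded protein response 7 rose and 3 fell, or 11 and 2 with rescaled TPM. The count of rises was 4 without Col replicate 3, 4 without h3.3kd replicate 2 and 4 without h3.3kd replicate 3. CRT1b (AT1G09210), a calreticulin, rose from 47.7 ± 1.91 to 67.6 ± 6.75 TPM (log2 change 0.49, SE 0.11).

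In the immune lists falls outnumbered rises, as among all tested genes (26.7% fell and 9.12% rose). Receptors at the cell surface sense microbial patterns, and salicylic acid carries the signal of resistance to biotrophs. Of 24 genes of pattern-triggered immunity 1 rose and 10 fell, and 10 fell with rescaled TPM. The 1 rise was lost when any library other than h3.3kd replicate 1 was left out. SOBIR1 (AT2G31880), an adaptor kinase of receptor-like proteins, fell from 37 ± 7.28 to 18.24 ± 0.367 TPM (log2 change -0.96, SE 0.14), and WRKY29 (AT4G23550), a factor downstream of flagellin sensing, from 8.13 ± 0.614 to 4.55 ± 0.393 TPM (log2 change -0.72, SE 0.16). Of 14 genes of salicylic acid immunity 2 rose and 8 fell (4 and 5 with rescaled TPM), but 5 fell without Col replicate 2 and 5 without any 1 of the h3.3kd libraries, and 1 rose without any of these 4 or Col replicate 1. PR5 (AT1G75040), a pathogenesis-related marker, had 28.2, 26.6 and 31.8 TPM in Col and 8.26, 9.4 and 9.46 TPM in h3.3kd (log2 change -1.57, SE 0.1, adjusted p = 5.03e-08, limma). EDS1 (AT3G48090), a hub of basal and receptor-mediated immunity, fell from 17.1 ± 0.899 to 11.1 ± 0.185 TPM (log2 change -0.58, SE 0.11), and DMR6 (AT5G24530), an enzyme that removes salicylic acid, from 21.3 ± 2.62 to 12 ± 0.334 TPM (log2 change -0.77, SE 0.11). Of 101 intracellular NBS-LRR receptors 6 rose, or 12 with rescaled TPM, and 35 fell. Of 204 receptor kinases 11 rose and 59 fell, 11 of them at least 2-fold, a share of falls near that of all tested genes, or 35 and 45 with rescaled TPM. Without h3.3kd replicate 2, 7 receptor kinases rose. CRK41 (AT4G00970), a cysteine-rich receptor kinase, fell from 8.7 ± 4.63 to 0.923 ± 0.0916 TPM (log2 change -2.24, SE 0.25). Among 45 WRKY factors 1 rose and 17 fell, or 11 without h3.3kd replicate 1 and 11 with rescaled TPM. Of 13 defensins none rose and 8 fell, or 5 without Col replicate 2.

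Genes that respond within minutes to touch, wounding and other stimuli were lower too. Of 27 none rose and 15 fell, but 8 fell without Col replicate 3, 8 without h3.3kd replicate 3 and 9 with rescaled TPM. TCH3 (AT2G41100), a calmodulin-like protein induced by touch, had 15.5, 15.2 and 23.9 TPM in Col and 4.32, 4.02 and 4.58 TPM in h3.3kd (log2 change -1.83, SE 0.18, adjusted p = 2.87e-06, limma). TCH4 (AT5G57560), a wall-modifying enzyme of the same response, fell from 29.1 ± 1.21 to 14.9 ± 0.926 TPM (log2 change -0.92, SE 0.078).

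Jasmonate, the hormone of wounding, is made from fatty acids by lipoxygenases and allene oxide cyclases. Of 26 genes of its synthesis and response 4 rose and 13 fell (median -0.23). Members of the same enzyme families went in opposite directions. The lipoxygenase LOX4 (AT1G72520) fell from 11.9 ± 1.263 to 3.9 ± 0.292 TPM (log2 change -1.39, SE 0.1) while LOX2 (AT3G45140), the main plastid form, rose from 22.7 ± 4.42 to 38 ± 6.08 TPM (log2 change 0.73, SE 0.14). The cyclase AOC1 (AT3G25760) fell from 19.1 ± 1.95 to 11 ± 0.897 TPM (log2 change -0.75, SE 0.1) and AOC4 (AT1G13280) rose from 21.2 ± 0.393 to 37.7 ± 1.82 TPM (log2 change 0.8, SE 0.09).

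Genes of iron uptake and its control were lower. Roots short of iron make IMA peptides and bHLH factors such as PYE that raise uptake and internal transport. Of 37 genes 5 rose and 22 fell (8 and 18 with rescaled TPM), 7 of them at least 2-fold. IMA3 (AT2G30766) had 6.79, 7.1 and 7.74 TPM in Col and 0.795, 0.669 and 1.27 TPM in h3.3kd (log2 change -2.11, SE 0.14, adjusted p = 7.15e-08, limma). IMA2 (AT1G47395) had 21.7, 22.8 and 27.2 TPM in Col and 5.94, 7.91 and 8.92 TPM in h3.3kd (log2 change -1.54, SE 0.14, adjusted p = 1.24e-06). PYE (AT3G47640) had 33.5, 35.9 and 42.9 TPM in Col and 12.2, 14.5 and 20.8 TPM in h3.3kd (log2 change -1.22, SE 0.14, adjusted p = 1.28e-05). The groups did not overlap in any of the 3, as in 55.5% of all tested genes. NAS4 (AT1G56430), which makes the iron ligand nicotianamine, fell from 132 ± 7.03 to 58.2 ± 4.93 TPM (log2 change -1.17, SE 0.065), whereas FRO6 (AT5G49730), a ferric reductase of green tissue, rose from 6.56 ± 0.663 to 17.62 ± 1.05 TPM (log2 change 1.3, SE 0.091).

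In sulfur metabolism 4 of 30 genes rose, or 8 with rescaled TPM, and 13 fell. The count of rises was 1 without Col replicate 2, Col replicate 3 or h3.3kd replicate 2 and 2 without h3.3kd replicate 1 or 3. SULTR1;2 (AT1G78000), the main root sulfate importer, rose from 14 ± 1.62 to 34.1 ± 2.58 TPM (log2 change 1.23, SE 0.1), whereas the internal transporter SULTR2;2 (AT1G77990) fell from 5.93 ± 0.619 to 2.57 ± 0.208 TPM (log2 change -0.95, SE 0.11). Of 30 genes for antioxidant enzymes 4 rose and 16 fell, or 9 with rescaled TPM. The copper and zinc superoxide dismutases CSD1 (AT1G08830) and CSD2 (AT2G28190) fell by 0.67 and 0.92 on the log2 scale.

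Glucosinolates are the mustard oil precursors of the cabbage order, and genes of the aliphatic kind were more often higher than lower. Of 21 genes for the aliphatic kind, which are built from methionine, 13 rose and 5 fell under both scalings (median 0.44). After MAM3, the rises were led by CYP79F2 (AT1G16400), which starts the core pathway, with 5.74, 6.2 and 6.02 TPM in Col and 19.4, 16.9 and 17.5 TPM in h3.3kd (log2 change 1.43, SE 0.15, adjusted p = 4.31e-06, limma). GSTU20 (AT1G78370), a glutathione transferase of the pathway, rose from 86.2 ± 3.37 to 190.1 ± 2.22 TPM (log2 change 1.13, SE 0.09), and SOT17 (AT1G18590), the last enzyme of the core, from 21 ± 2.23 to 42.3 ± 2.39 TPM (log2 change 0.98, SE 0.1). MYB29 (AT5G07690), a MYB activator of these same genes, went against them with 18, 15.3 and 15 TPM in Col and 4.07, 2.83 and 2.83 TPM in h3.3kd (log2 change -2.02, SE 0.14, adjusted p = 1.28e-07). In the indolic branch 4 of 11 rose and 4 fell, and the rises numbered 2 without Col replicate 1, h3.3kd replicate 1 or h3.3kd replicate 2. CYP83B1 (AT4G31500), its core enzyme, rose from 109 ± 5.52 to 179 ± 13.7 TPM (log2 change 0.7, SE 0.081).

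Of 29 flavonoid and anthocyanin genes 3 rose (1 without Col replicate 1, Col replicate 2 or h3.3kd replicate 3) and 13 fell, 4 of them at least 2-fold. Besides PAP1, its sister factor PAP2 (AT1G66390) fell from 20.7 ± 2.66 to 4.87 ± 0.711 TPM (log2 change -1.89, SE 0.13). Among the late genes that make and store the red pigments, DFR (AT5G42800), which commits to anthocyanins, fell from 16.3 ± 2.51 to 7.83 ± 0.399 TPM (log2 change -0.96, SE 0.16), 5MAT (AT3G29590), which decorates them, from 9.87 ± 1.61 to 4.1 ± 1.2 TPM (log2 change -1.11, SE 0.17), and TT19 (AT5G17220), which carries them to the vacuole, from 30.5 ± 1.18 to 10.7 ± 0.532 TPM (log2 change -1.43, SE 0.078). Of 23 senescence genes none rose and 12 fell, 4 at least 2-fold. SAG29 (AT5G13170), a sugar transporter of the SWEET family that marks senescing leaves, had 14.7, 17.77 and 17 TPM in Col and 1.17, 1.68 and 1.59 TPM in h3.3kd (log2 change -2.82, SE 0.12, adjusted p = 8.18e-10, limma). ANAC019 (AT1G52890), a NAC factor of stress and age, fell from 8.59 ± 4.15 to 2.64 ± 0.613 TPM (log2 change -1.33, SE 0.24). SWEET11 (AT3G48740), which exports sucrose toward the phloem, had 157, 142 and 128 TPM in Col and 40.7, 41.1 and 45.1 TPM in h3.3kd (log2 change -1.72, SE 0.1, adjusted p = 2.01e-08). Of 25 genes for SWEET, sucrose and sugar transport 9 rose and 11 fell, 5 of them at least 2-fold.

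Growth hormones were represented by changes in both synthesis and breakdown. Among all tested genes 9.12% rose and 26.7% fell. Gibberellins are activated by GA3OX enzymes and removed by GA2OX enzymes, and of 24 genes of this pathway 2 rose and 12 fell. GA3OX1 (AT1G15550) had 6.76, 5.91 and 4.95 TPM in Col and 1.28, 1.71 and 1.55 TPM in h3.3kd (log2 change -1.45, SE 0.18, adjusted p = 2.53e-05, limma), GA2OX8 (AT4G21200) fell from 11.9 ± 0.846 to 2.16 ± 0.49 TPM (log2 change -2.04, SE 0.13) and GA2OX2 (AT1G30040) from 13.9 ± 0.618 to 4.59 ± 0.631 TPM (log2 change -1.42, SE 0.12). GASA14 (AT5G14920), a gibberellin-regulated cell wall peptide, rose from 11.3 ± 0.464 to 26.2 ± 1.16 TPM (log2 change 1.15, SE 0.085). Of 27 brassinosteroid genes 1 rose and 7 fell, a share of falls near that of all tested genes. With rescaled TPM 5 rose and 7 fell, where 16.6% of all tested genes fell. Of the 7 falls as deposited, 5 were at least 2-fold. They were the synthesis enzymes DWF4 (AT3G50660) (34.2 ± 4.55 to 13.3 ± 0.683 TPM, log2 change -1.3, SE 0.13) and ROT3 (AT4G36380) (18 ± 0.521 to 5.47 ± 0.443 TPM, log2 change -1.56, SE 0.083), the inactivating enzyme BAS1 (AT2G26710) (6.05 ± 0.95 to 2.25 ± 0.274 TPM, log2 change -1.11, SE 0.14) and the response factors BEE1 (AT1G18400) (9.13 ± 0.813 to 2.79 ± 0.533 TPM, log2 change -1.42, SE 0.12) and BEE3 (AT1G73830) (25.8 ± 0.691 to 11.6 ± 0.761 TPM, log2 change -1.09, SE 0.11). Fitted with the Col and h3.3kd libraries alone, 13 brassinosteroid genes fell. Of 50 auxin response genes 8 rose (5 without h3.3kd replicate 3) and 20 fell, or 13 with rescaled TPM. GH3.6 (AT5G54510), which inactivates auxin by conjugation, fell from 46 ± 4.71 to 21.1 ± 2.68 TPM (log2 change -1.09, SE 0.13), the repressor IAA3 (AT1G04240) from 59.3 ± 5.86 to 30.9 ± 2.15 TPM (log2 change -0.92, SE 0.08) and the synthesis gene YUC6 (AT5G25620) from 8.29 ± 0.772 to 4.14 ± 0.288 TPM (log2 change -0.85, SE 0.1), while GH3.9 (AT2G47750) rose from 1.87 ± 0.306 to 7.32 ± 0.385 TPM (log2 change 1.54, SE 0.11). Of 38 cytokinin genes 2 rose and 14 fell. At most 1 rose when any Col or h3.3kd library was left out. The falls were led by the synthesis gene IPT5 (AT5G19040) (11 ± 0.739 to 3.88 ± 0.859 TPM, log2 change -1.31, SE 0.14).

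FLC, the repressor of flowering whose level is set by chromatin, was lower. FLC (AT5G10140) had 5.5, 5.62 and 4.98 TPM in Col and 1.85, 2.01 and 1.3 TPM in h3.3kd (log2 change -1.23, SE 0.13, adjusted p = 6.9e-06, limma), with no overlap. Its target SOC1 (AT2G45660) rose from 4.59 ± 0.591 to 6.77 ± 0.197 TPM (log2 change 0.48, SE 0.1). SNZ (AT2G39250), another repressor, fell from 41.4 ± 0.935 to 20.8 ± 1.84 TPM (log2 change -0.96, SE 0.073), and of 32 flowering genes 2 rose and 11 fell. Of 52 light signalling genes 2 rose and 21 fell. PIF3 (AT1G09530), a factor that promotes elongation in the dark and in warmth, fell from 16.5 ± 0.76 to 9.74 ± 0.334 TPM (log2 change -0.7, SE 0.1), and the B-box factors BBX18 (AT2G21320) and BBX30 (AT4G15248) fell by 0.74 and 0.95. Clock genes depended on the scaling, with 5 higher and 8 lower of 28 as deposited and 9 and 2 rescaled. Without Col replicate 1, 3 were higher.

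Stomata, the pores of the leaf surface, form through a lineage opened by SPCH and closed by FAMA. Of 25 genes 1 rose and 15 fell, or 12 with rescaled TPM (median -0.37). SPCH (AT5G53210) had 11.2, 11.7 and 11.5 TPM in Col and 6.11, 5.06 and 6.32 TPM in h3.3kd (log2 change -0.87, SE 0.14, adjusted p = 0.000196, limma). EPF2 (AT1G34245), the peptide that restrains entry into the lineage, fell from 9.26 ± 1.76 to 4.47 ± 0.233 TPM (log2 change -0.89, SE 0.16), FAMA (AT3G24140) from 21.1 ± 2.93 to 13.2 ± 0.271 TPM (log2 change -0.63, SE 0.09) and KAT1 (AT5G46240), a potassium channel of guard cells, from 16.5 ± 1.74 to 8.88 ± 1.18 TPM (log2 change -0.83, SE 0.11). Genes from the first to the last step of the lineage thus fell. Of 41 genes of meristems and leaf form 2 rose and 17 fell. TCP10 (AT2G31070) and TCP4 (AT3G15030), which limit cell division in leaves, fell from 109 ± 9.65 to 53 ± 1.93 TPM (log2 change -1.03, SE 0.085) and from 101 ± 0.561 to 55.2 ± 1.57 TPM (log2 change -0.86, SE 0.054). KNAT1 (AT4G08150), a homeobox factor of the meristem, fell from 27.4 ± 1.47 to 15 ± 1.67 TPM (log2 change -0.83, SE 0.085).

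The waterproof cuticle covers the epidermis. Of 45 genes for cuticle, wax and very long chain fatty acids 7 rose and 20 fell, or 13 lower with rescaled TPM. MYB96 (AT5G62470), which turns on wax synthesis in drought, had 62.4, 67 and 98.8 TPM in Col and 27.4, 25.7 and 26.9 TPM in h3.3kd (log2 change -1.45, SE 0.15, adjusted p = 4.28e-06, limma). KCS6 (AT1G68530), the elongase for wax chains, had 426, 410.1 and 417 TPM in Col and 205, 189 and 184 TPM in h3.3kd (log2 change -1.12, SE 0.072, adjusted p = 4.48e-08). The lipid-transfer genes split, with LTP1 lower as given above and LTP2 (AT2G38530) higher (170.4 ± 5.35 to 345 ± 5.41 TPM, log2 change 1.01, SE 0.11).

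Large annotated families were counted as well, where 9.12% of all tested genes rose and 26.7% fell. Of 94 MYB factors 7 rose and 36 fell, 8 at least 2-fold, and 4 rose without Col replicate 2 or h3.3kd replicate 2. Of 56 NAC factors 3 rose and 25 fell. Of 152 cytochrome P450 genes 18 rose and 53 fell. The 273 tested genes for cytosolic ribosomal proteins moved little (median -0.023), and their balance turned with the scaling, from 17 higher and 31 lower to 66 and 9. With 1 library left out the rises ranged down to 6 (without h3.3kd replicate 2, and 7, 9 and 7 without Col replicate 2, Col replicate 3 and h3.3kd replicate 3), and the falls to 17 (without Col replicate 1, and 19 and 20 without h3.3kd replicates 1 and 3). Of 20 genes often used as references 4 rose and 5 fell, or 8 and 3 with rescaled TPM. Transposable-element-derived proteins passed the filter in 12 cases, of which 1 rose, or 4 with rescaled TPM.

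Calls also differed with gene structure and level. In the sixth of genes with the longest exonic sequence (2669 bases or more) 4.99% rose and 31.5% fell, with a median log2 change of -0.15, and in genes with at least 13 exons 3.73% rose. With rescaled TPM the longest genes had 11.9% higher and 19% lower against 17.2% and 16.6% of all genes. Large falls were the reverse, at least 2-fold in 4.64% of the shortest sixth and 0.64% of the longest. The share of falling genes went from 15.5% in the lowest decile by mean TPM to 34.2% in the highest, and that of rising genes from 6.84% to 15.8%. With rescaled TPM the falls went from 11.9% to 18.5% and the rises from 8.75% to 28.5%. The part of transcript length and measurement precision in these shares was not tested.

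Runs of at least 4 genes side by side that all changed one way by 0.5 or more on the log2 scale were found at 4 places. The only rising run held 6 genes from UNE15 (AT4G13560) to AT4G13580, among them the H2A.Z gene HTA4. AT4G13577 rose most in it, from 2.45 ± 0.629 to 6.7 ± 0.272 TPM (log2 change 1.17, SE 0.16), followed by AT4G13575 (7.53 ± 0.596 to 16.8 ± 1.38 TPM, log2 change 1.06, SE 0.18). AT4G13572 lost its call without Col replicate 1 or h3.3kd replicate 3, and AT4G13580 without h3.3kd replicate 1. The genes on either side, AT4G13550 at -0.44 and AT4G13590 at -0.22, were lower, the second losing its call with rescaled TPM and without Col replicate 1, Col replicate 2 or h3.3kd replicate 1. A falling run of 6 genes held AT4G23170 and the cysteine-rich receptor kinases CRK10 to CRK14. AT4G23170 fell from 5.65 ± 1.29 to 1.02 ± 0.41 TPM (log2 change -1.72, SE 0.22), CRK10 (AT4G23180) from 35.1 ± 7.5 to 12.9 ± 0.504 TPM (log2 change -1.36, SE 0.17) and CRK12 (AT4G23200) from 8.83 ± 0.759 to 3.49 ± 0.194 TPM (log2 change -1.13, SE 0.11). These kinases are close copies and can share reads.

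The other falling runs held 4 genes each. AT5G44580, of unknown function, had 278, 258 and 297 TPM in Col and 106, 103 and 95.8 TPM in h3.3kd (log2 change -1.44, SE 0.09, adjusted p = 2.95e-08, limma) and stood beside AT5G44578 (5.86 ± 1.37 to 0.134 ± 0.132 TPM, log2 change -2.58, SE 0.2), AT5G44582 (log2 change -1.06, SE 0.16) and AT5G44585 (log2 change -1.07, SE 0.16). Tested genes just before AT5G44578 also fell (log2 change -1.23 and -1.62), parted from it by a gene under the level tested. That edge of the run was thus set by the filter. Small annotated genes at 1 place can overlap. In the last run SIB2 (AT2G41180), a protein that binds WRKY33 and plastid sigma factor, fell from 23.9 ± 1.68 to 10.5 ± 1.84 TPM (log2 change -1.12, SE 0.095) and AT2G41190, an amino acid transporter by annotation, from 22.1 ± 3.69 to 6.11 ± 1.49 TPM (log2 change -1.71, SE 0.16). PIP5K5 (AT2G41210), a lipid kinase, fell by 0.84, and AT2G41200 by 0.52, which did not pass once TPM were rescaled (adjusted p = 0.0582), nor without Col replicate 1, Col replicate 3, h3.3kd replicate 1 or h3.3kd replicate 2.

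**Figure D4:**
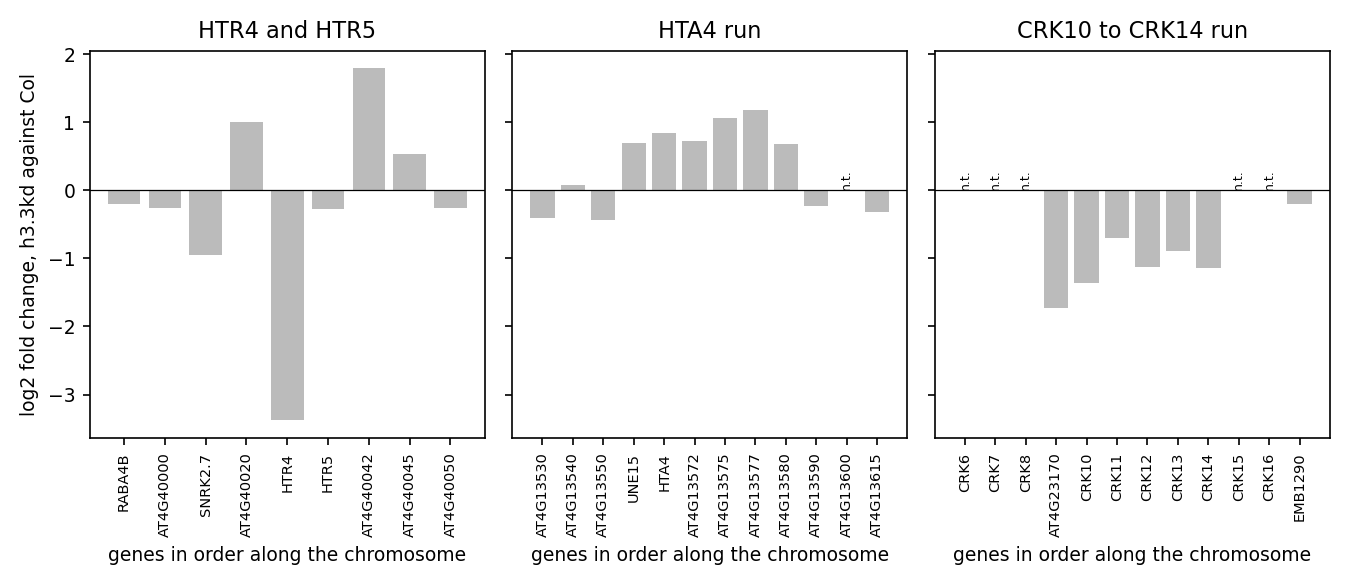
Log2 fold changes (h3.3kd against Col) of genes in their order along the chromosome at 3 places, with bars from 0 and n.t. for genes under the level tested. Left, HTR4 falls by 3.38 while the genes 2 and 3 places after it rise; middle, 6 genes around HTA4 rise together; right, 6 genes at the CRK cluster fall together.

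The same knockdown label occurs beside the label h2a.z, and the contrast of h3.3kd;h2a.z with h2a.z shows it in 6 libraries that the comparison with Col does not use. Of the H2A.Z genes, HTA9 averaged 161 TPM in Col, 32.8 TPM in h2a.z and 60.5 TPM in h3.3kd;h2a.z, so its transcript was lower there and not absent. Of those 6 libraries h2a.z replicate 1 was shallow, at about 5100000 reads against 19300000 to 26200000 in the other 5. In that contrast 9140 genes (48.5%) passed, 2673 higher (14.2%) and 6467 lower (34.3%). Of the 6762 genes called against Col 4169 (61.7%) were called in the same direction there and 324 (4.79%) in the opposite one. With rescaled TPM in that contrast these counts were 3610 and 502, and without h2a.z replicate 1 they were 4113 and 276. Large changes recurred more often: of the 503 genes that changed at least 2-fold, 439 (87.3%) were called in the same direction and 9 (1.79%) in the opposite one. Large changes are more readily called in any contrast, and both contrasts share 1 estimate of the spread of each gene. For falls of that size the count was 347 of 380 and for rises 92 of 123. Across all tested genes the log2 changes of both contrasts correlated at 0.57 (Pearson r, description only, since genes are not independent).

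Linker histone genes and 7 of 8 H4 genes also rose within h2a.z. There HIS1-3 changed by 3.73, H1.2 by 2.18, H1.1 by 1.66 and AT3G53730 by 2.96, and the sign was that seen against Col. Other histone genes did not: AT1G07660 went from 0.41 against Col to -1.0 within h2a.z (interaction -1.42, SE 0.11, adjusted p = 1.13e-06, limma). HTB6 went from 1.39 to -0.17 (interaction -1.55, SE 0.21, adjusted p = 0.000247), and HTR1 from 0.45 to 0.051. For AT1G07660 the h2a.z libraries averaged 103 TPM, while Col stood at 34.6 TPM and h3.3kd;h2a.z at 50.5 TPM. The HTB6 means were 13.8 TPM under the h2a.z label alone, 12.3 TPM with both labels and 6.11 TPM for Col. In both genes the h3.3kd;h2a.z mean was thus above that of Col. The change of these genes from Col to h2a.z was not tested. Within h2a.z 1 H3.1 gene was higher and 1 lower of 5, and 4 H2B genes were higher and 2 lower of 9. HTR4 and HTR8 were at -3.28 and -4.01 there. AZI1 (-3.43), PAP1 (-3.53), AT1G75945 (-4.36) and BOR5 (-3.15) fell as they did against Col, and HSP70 (-2.09) and FLC (-1.46) also did. The difference between both contrasts was tested as an interaction, for which 3298 genes (17.5%) were called, among them 189 of the 503 with large changes (37.6%). The 503 were picked by the change against Col, which the interaction subtracts, so their share cannot be set against that of all genes. AT1G13609 reversed, from -2.93 against Col to 1.44 within h2a.z (interaction 4.37, SE 0.32, adjusted p = 5.64e-07, limma). CRK10 also turned, from -1.36 to 1.03 (interaction 2.38, SE 0.25, adjusted p = 1.68e-05). IMA3 was at -2.11 against Col and 0.18 within h2a.z (interaction 2.29, SE 0.2, adjusted p = 3.73e-06), and SULTR1;2 went from 1.23 to -0.3 (interaction -1.53, SE 0.15, adjusted p = 9.17e-06). Of the lists, within h2a.z 4 of 21 aliphatic glucosinolate genes were higher and 9 lower, and 22 of 34 DNA replication genes were lower. The difference between these list counts was not tested.

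**Figure D5:**
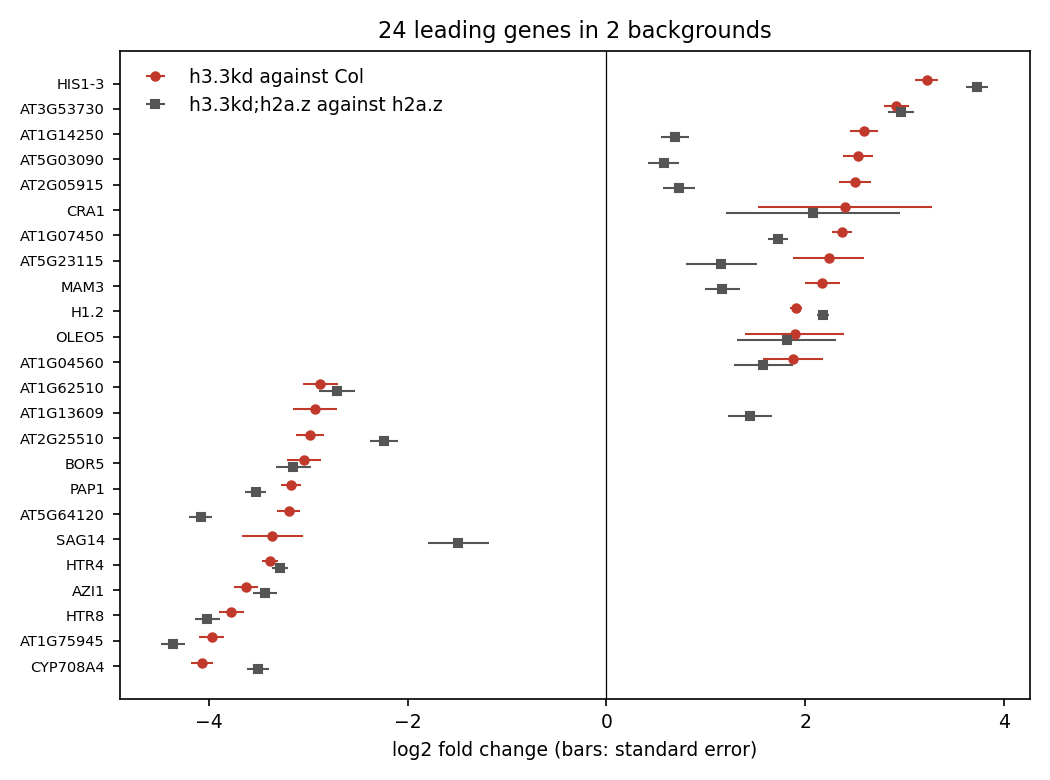
Log2 fold changes with SE bars of the 12 largest rises and 12 largest falls of h3.3kd against Col (red circles), beside the change of the same genes in h3.3kd;h2a.z against h2a.z (grey squares). In 23 of the 24 genes both changes have the same sign, and AT1G13609 is the exception.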

How the data were processed

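The files hold TPM of 23893 genes in 12 libraries (4 genotypes, 3 each), made by the authors and deposited as 1 table in which each column sums to 1000000. Per the submitters' processing notes the build was TAIR10 and the tools included HISAT2 2.1.10, fastp 0.20.1, DESeq2 1.26.0 and HTSeq 0.11.2. Their settings, the annotation, the strand setting and how TPM were computed are not stated. No column was left unused, and the 12 columns were matched to samples by name. Of the gene IDs, 23739 of 23893 matched RefSeq (TAIR10.1), which gave names, products, gene order and start regions.

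Fold changes were taken on log2(TPM + 1) for the 18851 genes with a mean of at least 1 TPM over the 12 libraries. All 12 libraries entered 1 limma fit (limma 3.58.1, R 4.3.3) with 4 groups, 8 residual degrees of freedom and a mean-variance trend, and p-values were adjusted by Benjamini-Hochberg over all genes tested. The code was tested on simulated data. Sums over genes were compared by exact permutation tests. Depth is not recorded by TPM and was estimated from the smallest steps between values, so it is approximate, and no counting interval is given.

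The 66 gene lists (1749 genes, of which 1533 were tested) and 20 groups by annotated product, and the choice of the comparison, were made with earlier results of these data known, so no list has a test of its own. The text names HTR4, HTR5 and HTR8; the 12 largest rises and falls among called genes with at least 5 TPM in Col or h3.3kd, no overlap and a call kept after rescaling; up to 5 called members a list of at least 5 TPM; the 5 largest changes in TPM each way; and runs of at least 4 adjacent called genes. Genes outside this rule are said to be so or stand as uncalled members or neighbours. Alternatives were TPM rescaled by median ratios, pseudocounts of 0.1 and 5, a filter at 5 TPM or none, no trend, the Col and h3.3kd libraries alone, replicate number as a block, and each library of a contrast left out in turn (for h3.3kd against Col also h2a.z replicate 1).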

Additional observations from a re-analysis of the deposited data

Results flagged for a closer look

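Of the 24 leading genes, 12 differed between the effect of the knockdown against Col and its effect within h2a.z, by the interaction term of the same limma fit (adjusted over all genes tested). Values are interaction log2 differences, the change within h2a.z minus the change against Col. The 24 were chosen for their large change against Col, which this difference subtracts. A smaller change within h2a.z is thus partly favoured by the choice, and 12 of 24 is no rate for other genes. AT1G13609 was the only one of the 12 to change direction, at 4.37 (from -2.93 to 1.44, adjusted p = 5.64e-07).

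The effect was smaller in size within h2a.z for 8 of them. Among the falls, SAG14 differed by 1.87 (-3.36 to -1.49, adjusted p = 0.00823), AT2G25510 by 0.74 (adjusted p = 0.0199) and CYP708A4 by 0.57 (-4.07 to -3.5, adjusted p = 0.0232). Among the rises, AT5G03090 differed by -1.95 (2.53 to 0.58, adjusted p = 3.51e-05), AT1G14250 by -1.9 (2.59 to 0.69, adjusted p = 1.97e-05) and AT2G05915 by -1.77 (2.5 to 0.73, adjusted p = 0.000108). MAM3 differed by -1 (2.17 to 1.17, adjusted p = 0.0122) and AT1G07450 by -0.64 (adjusted p = 0.00726).

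It was larger within h2a.z for the other 3. AT5G64120 differed by -0.89 (-3.2 to -4.08, adjusted p = 0.00233), HIS1-3 by 0.51 (3.22 to 3.73, adjusted p = 0.0449) and H1.2 by 0.27 (1.91 to 2.18, adjusted p = 0.0396).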

How the results depend on the processing

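The scaling decided the balance of calls: with TPM rescaled by median ratios 3241 genes were higher and 3124 lower, in place of 1720 and 5042. The pseudocount decided how many genes reached 2-fold, with 215 higher and 628 lower at a pseudocount of 0.1 and 44 and 145 at 5, since it shrinks the change of low genes. Leaving out 1 library at a time gave 5115 to 7173 calls (1252 to 1850 higher, 3695 to 5323 lower), 117 to 131 at least 2-fold higher and 376 to 398 at least 2-fold lower, and 8004 to 9531 calls within h2a.z; the plastid ratio ranged from 0.756 to 0.787 and the mitochondrial ratio from 1.03 to 1.16. Replicate numbers did not pair the libraries: deviations of same-numbered Col and h3.3kd libraries from their group means correlated at -0.023, 0.010 and -0.0098 across genes. The fit with the replicate number as a block gave 6405 calls (1636 higher, 4769 lower, 123 and 380 at least 2-fold) and 8888 within h2a.z. With the Col and h3.3kd libraries fitted alone there were 8398 calls (2217 higher, 6181 lower), above the range from leaving out 1 library. Of 183 called genes that the text names, 171 kept their call under every alternative run, 12 lost it under at least 1, and none reversed. HTB2, which was not called, was at 0.026 with rescaled TPM in place of -0.094. TPM carry no counts, so the counting error of low genes is unknown, and 3 libraries against 3 cannot give an exact permutation p below 0.1.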

Other observations

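Of 22 DNA methylation genes 2 rose and 4 fell, among them the demethylase ROS1 (AT2G36490) (5.53 ± 0.277 to 3.51 ± 0.168 TPM, log2 change -0.53, SE 0.11). The 1 that fell at least 2-fold, named here after its values were seen, was the related gene DML3 (AT4G34060, mean 3.03 TPM in Col and 0.727 TPM in h3.3kd, log2 change -1.21, SE 0.156). The rises numbered 1 without Col replicate 1, Col replicate 3, h3.3kd replicate 2 or h3.3kd replicate 3. Of 29 Polycomb and Trithorax genes 1 rose and 6 fell, or 2 and 4 with rescaled TPM. The falls included REF6 (AT3G48430), which removes the Polycomb mark (15.2 ± 0.795 to 11.8 ± 0.32 TPM, log2 change -0.34, SE 0.087). In this list and that of DNA methylation the share of falls as deposited was below the 26.7% of all tested genes. Of 15 transcription elongation genes 1 rose and 5 fell, but 1 fell without h3.3kd replicate 1, 2 without Col replicate 1 and 3 without Col replicate 2 or h3.3kd replicate 3. SPT4-1 (AT5G08565), a subunit of an elongation factor, rose from 5.81 ± 1.16 to 10.4 ± 0.122 TPM (log2 change 0.76, SE 0.15). Of 223 pentatricopeptide repeat proteins, which process organelle RNA, 5 rose and 58 fell, a share of falls near the 26.7% of all tested genes. The falls numbered 28 with rescaled TPM and 31, 33 and 35 without Col replicate 1, h3.3kd replicate 1 and h3.3kd replicate 3.

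Some nutrient and wall genes rose and others fell. Of 27 phosphate starvation genes 6 rose and 6 fell, or 2 lower with rescaled TPM and 3 without Col replicate 1, Col replicate 2 or h3.3kd replicate 3. RNS1 (AT2G02990), a secreted ribonuclease, rose from 4.37 ± 0.714 to 14.9 ± 2.86 TPM (log2 change 1.55, SE 0.16), and SQD2 (AT5G01220), which makes a sulfolipid that replaces phospholipids, from 70.1 ± 3.84 to 109 ± 2.27 TPM (log2 change 0.63, SE 0.11), whereas the importer PHT1;4 (AT2G38940) fell from 26.7 ± 1.81 to 14.4 ± 0.618 TPM (log2 change -0.85, SE 0.11). The expansins EXPA6 (AT2G28950) and EXPB1 (AT2G20750), which loosen cell walls, rose from 37.7 ± 0.437 to 75.5 ± 6.56 TPM (log2 change 0.98, SE 0.07) and from 18.4 ± 2.11 to 34.5 ± 0.802 TPM (log2 change 0.88, SE 0.14). Of the 41 genes of their list 9 rose and 7 fell, or 15 and 3 with rescaled TPM, and the falls numbered 4 without Col replicate 1 and 3 without Col replicate 2 or h3.3kd replicate 1. Of 54 class III peroxidases 17 rose (10 without Col replicate 1 or h3.3kd replicate 1 and 11 without h3.3kd replicate 2) and 12 fell. AT5G64120 and its neighbour AT5G64110 fell most among those named (34.8 ± 1.3 to 6.06 ± 0.914 TPM, log2 change -2.35, SE 0.14), and AT2G38390 rose from 19.8 ± 0.695 to 48.7 ± 0.473 TPM. Of 17 strigolactone and karrikin genes 1 rose and 10 fell, or 6 without h3.3kd replicate 1. The strigolactone synthesis gene MAX1 (AT2G26170) fell from 53.2 ± 5.17 to 25.4 ± 1.52 TPM (log2 change -1.04, SE 0.12), while the receptor D14 (AT3G03990) rose from 32.6 ± 2.23 to 47 ± 0.635 TPM (log2 change 0.52, SE 0.064) and the karrikin receptor KAI2 (AT4G37470) fell from 181 ± 11.1 to 112 ± 7.56 TPM (log2 change -0.68, SE 0.071).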
